A study of Mus musculus with 6 samples.

Results

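The genes described here are 8 marker genes of border-associated macrophages, *Mrc1*, *Cd163*, *Stab1*, *Lyve1*, *Pf4*, *F13a1*, *Ms4a7* and *Cbr2*. They were taken by name from a table of 31053 mouse genes, and all 8 were found. Bulk RNA sequencing libraries of the cerebellum, 2 from WT and 3 from knock-in knock-out (KIKO) mice, were compared, to ask whether the transcriptome of macrophages/microglia differs between the genotypes. WT replicate 3 was not analysed here. The study describes cells carrying CD45 and CD11b, isolated with magnetic beads from the cerebellum, and mice that were 6 mo old, whereas the labels name the cerebellum and the genotype and give neither sorting nor age nor sex. KIKO mice carry a knocked-in and a knocked-out allele of the same gene in every cell of the body, and the WT mice were littermates of the C57BL/6 strain. No animal of either group is described as carrying a Cre or another transgene. Nothing in the labels says that libraries came from separate mice, so that p-values measure the spread between these libraries.

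Border-associated macrophages are the resident macrophages of the meninges, the perivascular spaces and the choroid plexus, at the interfaces of the brain with blood and cerebrospinal fluid. They are distinct from microglia, which lie within the parenchyma, although both carry CD45 and CD11b at their surface. They are known for taking up proteins, lipids and cell debris through scavenger and endocytic receptors, and for presenting antigens. Several of their markers are also used by other cells, as *Lyve1* by lymphatic endothelium and *Pf4* by platelets.

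The libraries held between 1013107 and 1351339 counts, so that 3 counts, taken as the smallest signal at this depth, corresponded to a normalized CPM between 2.25 and 3.01. Normalized CPM are counts scaled to a common library size (CPM) after adjustment by TMM, a factor that aligns the bulk of the genes between libraries. The floor and the intervals below cover counting error only. KIKO replicate 2 stood apart from all other libraries. Across the 10889 genes tested, which are not independent replicates, r between its log2 CPM and those of another library was at most 0.747 and at least 0.672, while pairs of the other 4 had r between 0.884 and 0.931. It was above all or below all other libraries in 71.0% of the genes tested, whereas the same held in 35.7% and 29.8% for the WT libraries and in 27.9% and 35.4% for KIKO replicates 1 and 3. Fold changes of the markers are therefore given with and without this library.

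Each of the genes was detected in every library, apart from *Ms4a7*, which had 0 counts in KIKO replicate 2. Transcripts of the 8 genes were a small part of each library. They summed to 264 and 441 counts in the WT libraries and to 363, 587 and 260 counts in KIKO replicates 1, 2 and 3, which is between 0.0253% and 0.0473% of all counts. Except for *Ms4a7*, each gene had at least 11 counts in every library. None of the 7 genes that could be tested differed between KIKO and WT mice at the thresholds used, a log2 fold change over 0.75 in size and p below 0.05 before adjustment, by the quasi-likelihood test of edgeR. These thresholds were passed by 131 of all genes tested (1.2%, of which 0.716% were higher and 0.487% lower in KIKO mice), so that 0 of 7 is close to this background. No gene tested (0.0%) had an adjusted p under 0.05 with edgeR, and DESeq2 and limma also gave 0, while 131 had an unadjusted p under 0.05 with edgeR. Among the 7 genes the unadjusted p ranged from 0.125 to 0.981. The median log2 fold change was 0.06 for the 7 genes and 0.02 for all genes tested. Without KIKO replicate 2 it was −0.22 for the 7 genes and −0.01 for all genes, and again 0 of the 7 passed the thresholds, beside 6.36% of all genes tested (2.92% higher and 3.43% lower). In that model 8.1% of all genes had an unadjusted p under 0.05 and 0.0735% an adjusted p under 0.05, none of them a marker. In bulk RNA, a change in the number of macrophages and a change in RNA per macrophage cannot be told apart.

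**Figure D1:**
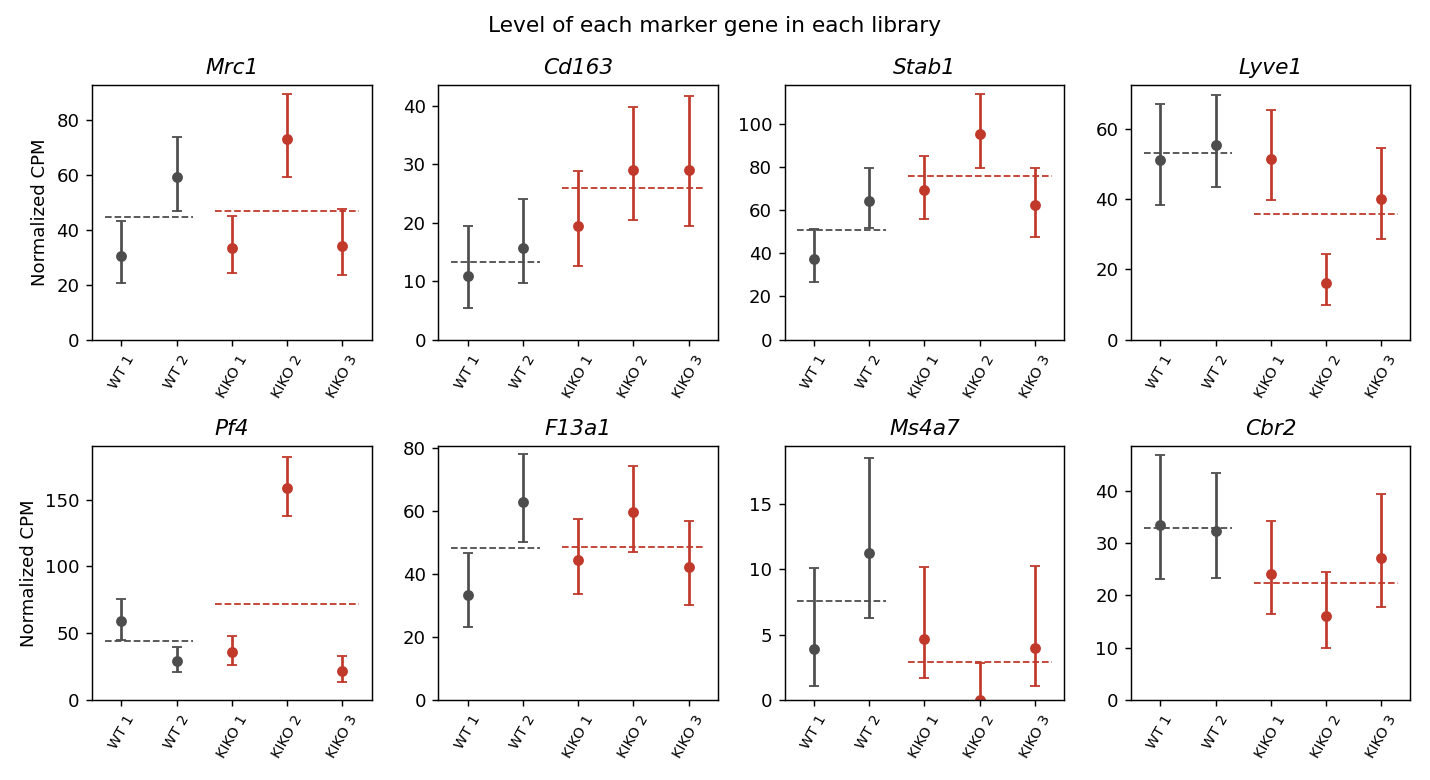
Normalized CPM of the 8 marker genes in the 2 WT (grey) and 3 KIKO (red) libraries, with exact Poisson 95% intervals as bars and the group mean as a dashed line. *Pf4* stands at 158.8 in KIKO replicate 2 and at most 59.0 elsewhere, *Lyve1* is lowest in the same library at 16.0, and *Cd163* lies higher in all 3 KIKO than in both WT libraries.

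Among the receptors of the cell surface, *Mrc1* (chromosome 2, 14229392 to 14332057, GRCm38) encodes the mannose receptor CD206, which takes up glycoproteins and is the usual marker of these macrophages. Its normalized CPM was 30.5 and 59.2 in the WT libraries and 33.5, 73.3 and 34.1 in KIKO replicates 1, 2 and 3. WT replicate 2 and KIKO replicate 2 were high and the other 3 libraries were close to each other, so that the groups overlapped. WT libraries averaged 44.8 ± 20.3 (SD, n = 2) and KIKO libraries 46.9 ± 22.8 (SD, n = 3). KIKO over WT gave a log2 fold change of 0.06 (standard error 0.53, 95% interval −1.15 to 1.28, adjusted p = 1 in edgeR's quasi-likelihood test), and it was −0.42 without KIKO replicate 2. The interval holds a doubling in either direction.

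*Cd163* (chromosome 6, 124304656 to 124330527) encodes the receptor that clears complexes of haptoglobin and hemoglobin. It had 11 and 21 counts in the WT libraries and 25, 38 and 29 counts in KIKO replicates 1, 2 and 3, or 10.8 and 15.7 against 19.5, 29.0 and 29.1 normalized CPM. All 3 KIKO libraries were above both WT libraries. The 95% counting intervals of WT replicate 2 (9.74 to 24.0) and KIKO replicate 1 (12.6 to 28.7) nevertheless overlapped. WT libraries averaged 13.3 ± 3.47 (SD, n = 2) and KIKO libraries 25.8 ± 5.52 (SD, n = 3). On the log2 scale this was a difference of 0.95 (standard error 0.55, 95% interval −0.32 to 2.22, adjusted p = 1 in edgeR's quasi-likelihood test). It was the largest log2 fold change of the 7 genes in size, and it was 0.84 without KIKO replicate 2, and it passed the test in neither model. Groups that do not overlap were found for 2 of the 7 genes, *Cd163* and *Cbr2*, and for 16.7% of all genes tested, of which 8.2% were higher and 8.51% lower in KIKO mice.

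*Stab1* (chromosome 14, 31139013 to 31168641) encodes stabilin 1, a scavenger receptor that carries modified lipoproteins and matrix fragments to lysosomes. Its normalized CPM was 37.4 and 64.4 in the WT libraries and 69.3, 95.4 and 62.1 in KIKO replicates 1, 2 and 3. WT replicate 1 was the lowest library, and WT replicate 2 lay among the KIKO libraries. For *Stab1* the log2 fold change was 0.57 (standard error 0.43, 95% interval −0.41 to 1.55, adjusted p = 1 in edgeR's quasi-likelihood test) and 0.36 without KIKO replicate 2. Its exons share positions with *Nt5dc2* on the opposite strand, and the strand setting of the counting is not given in the sources used here. Whether reads at these positions were counted for *Stab1*, for *Nt5dc2* or for neither is therefore not known.

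*Lyve1* (chromosome 7, 110850607 to 110863239) encodes a receptor for hyaluronan, a polysaccharide of the extracellular matrix, and marks macrophages that lie along vessels. It had 52 and 74 counts in the WT libraries and 66, 21 and 40 counts in KIKO replicates 1, 2 and 3, or 51.2 and 55.4 against 51.4, 16.0 and 40.1 normalized CPM. The 2 WT libraries and KIKO replicate 1 were nearly equal, and KIKO replicate 2 was well below them. The counting interval of KIKO replicate 2 (9.92 to 24.5) did not reach that of any other library, the lowest of which began at 28.6. The log2 fold change was −0.57 (standard error 0.53, 95% interval −1.79 to 0.64, adjusted p = 1 in edgeR's quasi-likelihood test), and without KIKO replicate 2 it was −0.22.

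Among the secreted products, *Pf4* (chromosome 5, 90772435 to 90773383) encodes platelet factor 4, the chemokine CXCL4. It had 60 and 39 counts in the WT libraries and 46, 208 and 22 counts in KIKO replicates 1, 2 and 3, or 59.0 and 29.2 against 35.8, 158.8 and 22.0 normalized CPM. KIKO replicate 2 was far above the other libraries, 4.35 times their mean, while KIKO replicate 3 was the lowest of all. WT libraries averaged 44.1 ± 21.1 (SD, n = 2) and KIKO libraries 72.2 ± 75.3 (SD, n = 3), so that the SD in KIKO mice exceeded the mean. In the fit of all libraries the log2 fold change was 0.72 (standard error 0.81, 95% interval −1.14 to 2.58, adjusted p = 1 in edgeR's quasi-likelihood test) and became −0.58 without KIKO replicate 2. This library alone set the sign.

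*F13a1* (chromosome 13, 36867178 to 37050244) encodes the A subunit of coagulation factor XIII, a transglutaminase that cross-links fibrin and matrix proteins. Its normalized CPM was 33.5 and 62.9 in the WT libraries and 44.4, 59.5 and 42.1 in KIKO replicates 1, 2 and 3. The WT libraries enclosed all KIKO libraries, and the means were 48.2 ± 20.8 (SD, n = 2) and 48.7 ± 9.47 (SD, n = 3). The log2 fold change was 0.01 (standard error 0.45, 95% interval −1.01 to 1.03, adjusted p = 1 in edgeR's quasi-likelihood test) and −0.17 without KIKO replicate 2. Its exons share positions with *Gm30489* on the opposite strand, as described for *Stab1*.

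The other genes encode a membrane protein and an enzyme. *Ms4a7* (chromosome 19, 11321039 to 11336146), of the MS4A family of tetraspan membrane proteins, separates these macrophages from microglia. It had 4 and 15 counts in the WT libraries and 6, 0 and 4 counts in KIKO replicates 1, 2 and 3, too few to pass the filter on low counts. It was clearly above the floor only in WT replicate 2, at 11.2 normalized CPM, and the 0 counts of KIKO replicate 2 allow a level of up to 2.29 by the floor of 3 counts, or 2.82 by the exact Poisson 95% interval. A difference in *Ms4a7* was not detectable at this depth. *Cbr2* (chromosome 11, 120729489 to 120732114) encodes a carbonyl reductase that uses NADPH. Its normalized CPM was 33.5 and 32.2 in the WT libraries and 24.1, 16.0 and 27.1 in KIKO replicates 1, 2 and 3. All 3 KIKO libraries were below both WT libraries, with means of 32.8 ± 0.876 (SD, n = 2) and 22.4 ± 5.72 (SD, n = 3). The 95% counting intervals of WT replicate 1 (23.2 to 46.7) and KIKO replicate 2 (9.92 to 24.5) nevertheless overlapped, as did those of every other pair of libraries. Both WT intervals were far wider than the WT SD. For *Cbr2* the log2 fold change was −0.55 (standard error 0.49, 95% interval −1.66 to 0.56, adjusted p = 1 in edgeR's quasi-likelihood test) and −0.36 without KIKO replicate 2.

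**Figure D2:**
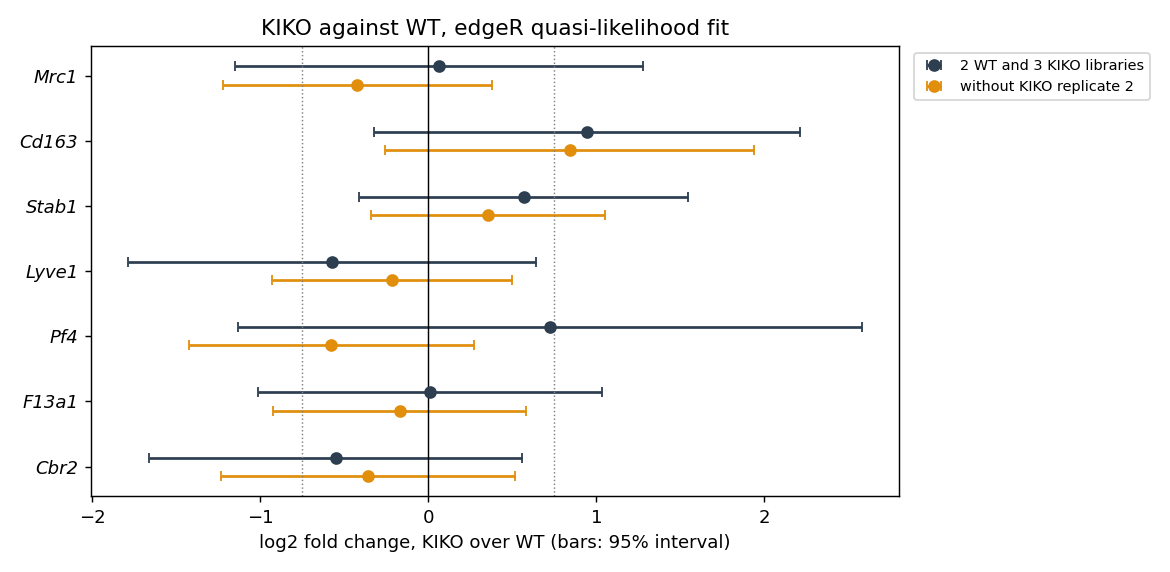
Log2 fold change of KIKO over WT for the 7 tested genes with 95% intervals from edgeR's quasi-likelihood fit, with all 5 libraries (dark) and without KIKO replicate 2 (orange), and with dotted lines at 0.75 in size. Every interval includes 0, and *Mrc1*, *Pf4* and *F13a1* change sign when the library is left out.

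The promoters of *Pf4* and *Cbr2* are shown, as both are listed as markers but ranked at opposite ends in KIKO replicate 2. *Lyve1*, at 0.32 times the mean of the other libraries there against 0.55 for *Cbr2*, has no promoter window. *Ms4a7*, with 0 counts there, could not be tested. GGAA is the core motif of factors of the ETS family, to which PU.1, a central factor of macrophages, belongs. GAGGAA, a longer form of these letters, is printed in capitals on either strand, where the other strand reads TTCCTC. KIKO replicate 2 was the highest of the 5 libraries for *Pf4* and the lowest for *Cbr2*. For *Pf4* its counting interval (137.9 to 181.9 normalized CPM) lay above those of all other libraries. For *Cbr2* its interval (9.92 to 24.5) overlapped those of all other libraries, so that the low rank lies within counting error. The sequences are the 250 bases before the gene start in RefSeq on GRCm38.p6, written 5′ to 3′ along the strand of the gene, chr5:90772185-90772434 (+) for *Pf4* and chr11:120732022-120732271 (−) for *Cbr2*.
Pf4: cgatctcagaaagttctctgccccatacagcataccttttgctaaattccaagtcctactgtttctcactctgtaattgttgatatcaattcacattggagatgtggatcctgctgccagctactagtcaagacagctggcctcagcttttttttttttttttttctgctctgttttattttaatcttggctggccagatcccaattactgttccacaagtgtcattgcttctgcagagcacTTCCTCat
Cbr2: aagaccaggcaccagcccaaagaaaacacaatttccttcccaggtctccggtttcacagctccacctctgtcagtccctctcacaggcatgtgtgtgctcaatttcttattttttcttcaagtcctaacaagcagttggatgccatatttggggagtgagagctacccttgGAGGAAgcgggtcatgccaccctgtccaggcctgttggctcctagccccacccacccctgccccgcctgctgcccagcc
The capitals begin 8 bases before the RefSeq start of *Pf4* and 79 bases before that of *Cbr2*. For *Cbr2* the start given above from GENCODE, 120732114, lies inside the window. The capitals of *Cbr2* therefore fall within the gene as GENCODE places it, and before it only by RefSeq. RefSeq windows were found for 7 of the 8 genes, all but *Lyve1*. GAGGAA was present in *Mrc1*, *Pf4*, *F13a1*, *Stab1* and *Cbr2*, that is 5 of 7 genes and 5 of their 9 windows, since *F13a1* and *Ms4a7* have 2 each, and in 23.3% of 32851 windows of the same length over all genes. The 8 letters GAGGAAGT, which contain it, were present only in *Pf4* among the 7 genes, and in 2.44% of all windows. Counted by gene, GGAAGT was present in 4 (19.7% of all windows), TGCTGA, part of the site bound by MAF factors, in *Stab1* alone (16.1%), and TGCTGAC in none of the 7 (3.81%). The shorter GGAA was present in all 7 genes and in 93.4% of all windows. These 6 strings were chosen after the sequences were seen. A match is a description of letters and no evidence of binding, and GAGGAA was found both in genes that were highest and in a gene that was lowest in KIKO replicate 2. It was absent from *Ms4a7*, which had 0 counts in that library, and from *Cd163*.

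How the counts of the 8 genes divide among them does not depend on the size of the library. *Pf4* made up 22.7% of their counts in WT replicate 1 (95% exact binomial interval 17.8 to 28.3), 8.84% in WT replicate 2 (6.36 to 11.9), 12.7% in KIKO replicate 1 (9.43 to 16.5), 35.4% in KIKO replicate 2 (31.6 to 39.5) and 8.46% in KIKO replicate 3 (5.38 to 12.5). *Lyve1* made up 3.58% in KIKO replicate 2 (2.23 to 5.42) and between 15.4% and 19.7% in the other libraries. The intervals of both shares in KIKO replicate 2 lay outside those of all other libraries. The interval of *Pf4* in WT replicate 1 also lay outside those of all others. *Pf4* exceeded *Lyve1* 9.90-fold in counts in KIKO replicate 2, compared with ratios from 0.53 to 1.15 elsewhere. Across the members, KIKO replicate 2 was the highest library for *Mrc1*, *Pf4* and *Stab1* (3 of 7, background 33.9%) and the lowest for *Lyve1* and *Cbr2* (2 of 7, background 37.1%). These shares are close to those of all genes, so that standing apart in this library was not particular to the markers.

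**Figure D3:**
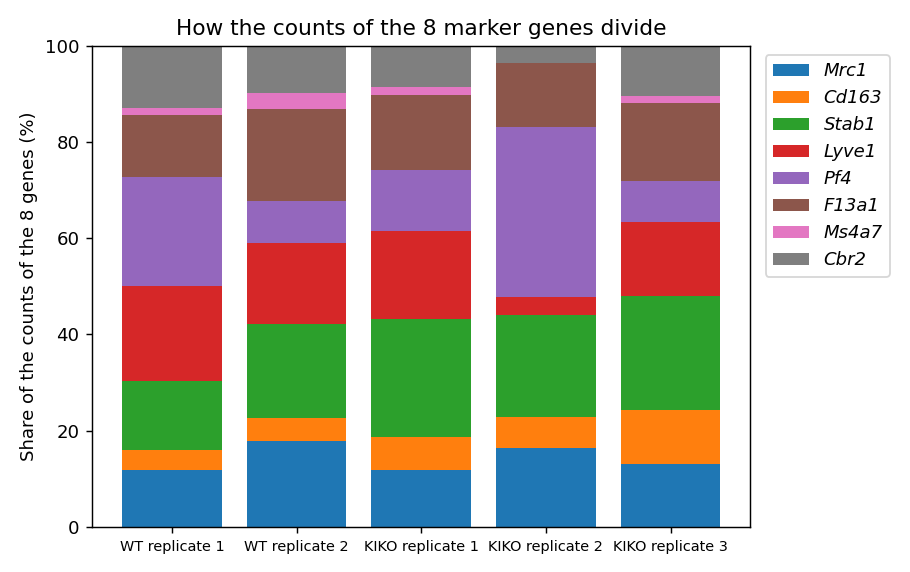
Share of the summed counts of the 8 marker genes taken by each gene (%), for each of the 5 libraries. *Pf4* takes 35.4% in KIKO replicate 2 and at most 22.7% elsewhere, and *Lyve1* takes 3.58% there and at least 15.4% elsewhere.

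The ratio of *Cd163* to *Mrc1* counts within a library, chosen after its values were seen, was 0.35 and 0.27 in the WT libraries and 0.58, 0.40 and 0.85 in KIKO replicates 1, 2 and 3. All 3 KIKO libraries were above both WT libraries, and no test was made of this ratio. The ratio of *F13a1* to *Mrc1* was 1.10 and 1.06 in the WT libraries and 1.33, 0.81 and 1.24 in the KIKO libraries, which enclosed the WT values.

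Levels of different genes were compared per kb of exon sequence, as normalized CPM divided by the length of the joined exons. The mean over the 5 libraries was 84.6 for *Pf4* (30.6 to 220.2), 20.03 for *Cbr2* (12.1 to 25.2), 14.7 for *Lyve1* (5.49 to 19.0), 7.24 for *Mrc1* (4.79 to 11.5), 7.19 for *F13a1* (4.96 to 9.34), 6.39 for *Stab1* (3.63 to 9.27), 3.81 for *Cd163* (1.98 to 5.32) and 1.07 for *Ms4a7* (0 to 2.52). *Pf4* lay above *Cbr2* without overlap, while the ranges of every other pair of neighbours in this order overlapped. The exons of *Pf4* join to 721 bases and those of *Stab1* to 10288. If each transcript gave reads from its 3′ end alone, as in the digital mRNA sequencing that the methods name, rather than along its length, as in the stranded kit that the labels name, levels would not depend on length. By mean normalized CPM alone *Stab1* came first and *Pf4* second. KIKO replicate 2, at 158.8, raised the mean of *Pf4*. By library, *Pf4* was the highest marker in WT replicate 1 and KIKO replicate 2, and below *Stab1*, *F13a1* and *Lyve1* in the others.

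The summed normalized CPM of the 8 genes was 259.7 and 330.4 in the WT libraries and 282.8, 448.0 and 260.6 in KIKO replicates 1, 2 and 3. KIKO replicate 2 was highest, and the other KIKO libraries lay between the WT values. Without *Pf4* the sums were 200.7 and 301.2 against 246.9, 289.3 and 238.5, so that WT replicate 2 was then the highest. Microglial transcripts were far more abundant. The 20 microglial genes, led by *Csf1r*, summed to 6199 and 7865 normalized CPM in the WT libraries and to 5448, 13690 and 6196 in KIKO replicates 1, 2 and 3. Their defining markers were present in every library, with *Tmem119* between 216.6 and 369.4 and *P2ry12* between 92.2 and 518.2. Per 100 counts of microglial genes, the 8 markers had 4.19 and 4.20 counts in the WT libraries and 5.19, 3.27 and 4.21 counts in KIKO replicates 1, 2 and 3. The KIKO libraries lay on both sides of the WT values. Of the microglial genes 0 of 20 passed the thresholds, and without KIKO replicate 2 1 of 20 was lower in KIKO mice, *Itgam*, the gene of CD11b, beside 3.43% of all genes tested.

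The pattern over the 5 libraries most like that of the summed 8 genes was found in *Nfe2l2*, which encodes the transcription factor Nrf2, *Ado*, *Cdc42*, *Slc45a1* and *Pianp*. Likeness was the root-mean-square difference of log2 normalized CPM, each centred on its mean, and it was 0.0434 for *Nfe2l2* and 0.0571 for *Pianp* among 7482 genes with a mean of at least 20, whose median was 0.51. *Nfe2l2* had 137.7 and 188.0 normalized CPM in the WT libraries and 163.6, 254.2 and 148.3 in KIKO replicates 1, 2 and 3. With 5 libraries, of which KIKO replicate 2 differs most, such likeness is a description of the order of the libraries. That order rests on *Pf4*, since without it the sum was higher in WT replicate 2 (301.2) than in KIKO replicate 2 (289.3). Likeness to the sum without *Pf4* was not measured.

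A wider list of 42 genes used for border-associated macrophages was described next. It spans C-type lectins, MS4A proteins, chemokines, antigen presentation and lipid transport. All 42 had at least 1 count and 26 could be tested. Of these 0 rose and 1 fell past the thresholds, beside 0.716% and 0.487% of all genes tested, with a median log2 fold change of −0.09. Without KIKO replicate 2, 0 rose and 3 fell (*Gas6*, *Lyz2* and *H2-Aa*), beside 3.43% of all genes tested that were lower in that model, and the median was −0.41. Some of the lectins and receptors of the list had too few counts to be tested. Among them were *Folr2*, which had at most 7.49 normalized CPM, and *Siglec1*, which had at most 3.75. The lectins *Clec10a* and *Mgl2* could be tested, and neither passed the thresholds. The lectin *Cd209f* had 8.86 and 2.25 in the WT libraries and 3.12, 26.0 and 1.002 in KIKO replicates 1, 2 and 3, highest in KIKO replicate 2. *Clec10a* instead had 27.5 and 24.7 against 8.57, 9.16 and 19.0, with all KIKO libraries below both WT libraries, as in 8.51% of all genes tested. The log2 fold change of *Clec10a* was −1.10, and −0.94 without KIKO replicate 2. *Ms4a6d*, of the same family as *Ms4a7*, had 19.7 and 45.7 against 17.1, 169.4 and 17.0. KIKO replicate 2 was thus high for *Ms4a6d* and at 0 counts for *Ms4a7*. *Folr2*, *Siglec1*, *Clec10a*, *Mgl2*, *Cd209f* and *Ms4a6d* were chosen after their values were seen.

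The gene that fell was *Gas6*, which encodes a ligand of the TAM receptors that recognise dying cells. It had 123.0 and 112.4 normalized CPM in the WT libraries and 53.0, 74.8 and 27.1 in KIKO replicates 1, 2 and 3, and all KIKO libraries were below both WT libraries. The difference was −1.18 on the log2 scale (standard error 0.46, adjusted p = 1 in edgeR's quasi-likelihood test) and −1.53 without KIKO replicate 2 (adjusted p = 0.051 in the same test). It no longer passed the thresholds with a block for the replicate number (−0.90), nor without WT replicate 1 (−1.12), WT replicate 2 (−1.25), KIKO replicate 1 (−1.19) or KIKO replicate 3 (−0.88). Its exons share positions with *Tmem255b* on the opposite strand. The most abundant genes of the list were *Apoe*, a lipid carrier, *Lyz2*, the lysozyme of myeloid cells, *Maf*, a transcription factor of tissue macrophages, and *H2-Aa* and *Cd74* of antigen presentation by class II molecules. *Apoe* had 1536 and 1787 normalized CPM in the WT libraries and 1184, 1341 and 1287 in KIKO replicates 1, 2 and 3, without overlap and with a log2 fold change of −0.39 that did not pass the thresholds. *Maf* had 357.2 and 377.6 against 317.0, 221.3 and 277.6, also without overlap, and a log2 fold change of −0.43. Without KIKO replicate 2 these were −0.43 for *Apoe* and −0.30 for *Maf*. Of all genes tested, 8.51% were lower in KIKO mice without overlap, which is the background for *Gas6*, *Apoe* and *Maf*. *Lyz2* and *H2-Aa* were highest in KIKO replicate 2, at 682.3 and 290.8, and lowest in the other KIKO libraries, at most 228.5 and 115.3. *Cd74* had 96.4 and 64.4 against 112.9, 297.7 and 90.2, and a log2 fold change of 1.06 that did not pass the thresholds. It was 0.35 without KIKO replicate 2, and it passed with all genes of at least 1 count (1.04), with the replicate block (1.22) and without KIKO replicate 3 (1.35). Microglia also express *Apoe*, *Maf* and *Cd74*, so that their levels cannot be assigned to border-associated macrophages alone.

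Among 22 scavenger and endocytic receptors, which include *Mrc1*, *Cd163*, *Stab1* and *Lyve1*, 14 could be tested and 0 passed the thresholds in either direction. The median log2 fold change was 0.06 with all libraries and −0.43 without KIKO replicate 2, when 1 of 14, *Scarf1*, fell past the thresholds, beside 3.43% of all genes tested that were lower. The most abundant were *Lrp1*, a receptor for lipoproteins and apoptotic cells, with a mean of 294.3 normalized CPM, *Scarb2* of lysosomes with 184.6, *Cd68* of phagocytes with 143.8, *Cxcl16* with 65.9 and *Stab1* with 65.7. *Marco* and *Cd5l* had 0 counts in all 5 libraries.

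Markers of other cells that could carry the same transcripts were examined. Of 8 platelet and megakaryocyte genes 0 could be tested. *Gp1ba*, *Gp6* and *Tubb1* had 0 counts in all libraries, and the most abundant, *Gp9*, averaged 2.73 normalized CPM. The list summed to 4.92 and 9.74 in the WT libraries and to 14.02, 3.05 and 7.02 in KIKO replicates 1, 2 and 3. *Ppbp*, a platelet chemokine, had at most 8 counts in a library and 0 in KIKO replicate 2, and *Itga2b* had at most 5 and 1 in KIKO replicate 2. Of 6 genes of lymphatic endothelium 4 could be tested and 0 passed the thresholds. *Ccl21a* and *Mmrn1* had 0 counts, *Reln*, also a gene of cerebellar granule neurons, was the most abundant at 176.2, *Prox1* lay between 35.9 and 73.2 and *Pdpn* between 11.02 and 40.5. The list summed to 296.2 and 218.0 in the WT libraries and to 258.6, 292.3 and 225.5 in KIKO replicates 1, 2 and 3. The part of platelets in the values of *Pf4* and of lymphatic endothelium in those of *Lyve1* was not tested.

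Most markers of other blood cells had few counts, apart from erythroid genes. Of 10 monocyte genes 3 could be tested and 0 passed the thresholds. *Ly6c2*, *Plac8*, *Chil3* and *Ms4a4c* had 0 counts, *Ccr2* at most 7, and *Fn1*, the most abundant, averaged 51.8 normalized CPM. The monocyte list summed to 64.0 and 68.9 in the WT libraries and to 101.3, 120.6 and 103.2 in KIKO replicates 1, 2 and 3, without overlap. Its most abundant genes each overlapped between the groups. *Vcan* had 15.7 and 25.5 against 43.6, 7.63 and 57.1, and *Fn1* had 34.4 and 36.7 against 46.7, 106.1 and 35.1. The part of monocytes in the difference of *Cd163* was not tested. Of 8 neutrophil genes 2 could be tested and 0 passed, *S100a9* was the most abundant at 20.8, and *Ly6g* had 0 counts. The neutrophil list summed to 16.7 and 32.2 against 100.5, 32.1 and 48.1. Of 8 genes of dendritic cells 2 could be tested and 0 passed, *Xcr1* and *Clec9a* had 0 counts, and the most abundant was *Siglech*, which microglia also express. The list summed to 316.8 and 311.6 against 243.8, 422.1 and 236.5. Of 6 T cell and 4 B cell genes 0 could be tested, and *Cd3d* and *Cd3e* had 0 counts in all libraries. Erythroid genes, 5 in number and led by *Hbb-bs*, summed to 1018 and 2716 in the WT libraries and to 1873, 2884 and 1653 in KIKO replicates 1, 2 and 3, with 0 of 5 past the thresholds.

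Cells that lie beside these macrophages at vessels, meninges and choroid plexus were all represented. Of 10 genes of blood endothelium 0 rose and 1 fell (0.716% and 0.487% of all genes tested), *Kdr*, a receptor for VEGF, with 69.9 and 48.7 normalized CPM in the WT libraries and 27.3, 6.87 and 30.1 in KIKO replicates 1, 2 and 3 (log2 fold change −1.47, standard error 0.62, adjusted p = 1 in edgeR's quasi-likelihood test). *Kdr* was at −1.04 without KIKO replicate 2, and it no longer passed without WT replicate 1 (−1.19), WT replicate 2 (−1.71) or KIKO replicate 1 (−1.69). The list, led by *Flt1*, summed to 524.4 and 1001 against 578.8, 907.5 and 620.4. It was high in WT replicate 2 and KIKO replicate 2, as was *Mrc1*, and its part in that pattern was not tested. Mural cell genes, led by *Rgs5*, summed to 240.1 and 350.6 against 282.8, 404.5 and 249.6, with 0 of 6 tested genes past the thresholds. Fibroblast genes, led by *Dcn*, summed to 97.4 and 107.9 against 105.2, 187.0 and 124.3, with 0 of 5 past the thresholds. Choroid plexus genes, led by *Ttr*, which averaged 9945, summed to 10728 and 11815 against 7979, 14167 and 6691. Of these 0 of 9 passed the thresholds with all libraries, with a median log2 fold change of −0.58, and 3 (*Folr1*, *Kl* and *Clic6*) were lower without KIKO replicate 2, beside the 3.43% of all genes tested.

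Transcripts of the parenchyma were abundant as well. Oligodendrocyte genes summed to 5115 and 11699 normalized CPM in the WT libraries and to 4484, 18629 and 5732 in KIKO replicates 1, 2 and 3, and 0 of 6 passed the thresholds. The sum was high in WT replicate 2 and KIKO replicate 2, the libraries in which *Mrc1* was high. Of the 6 genes, 4 were highest in KIKO replicate 2 and 1, *Mag*, was lowest there (142.7). Neuronal genes, led by *Snap25*, summed to 2367 and 1577 against 2601, 1701 and 2727, a sum low in the same libraries, and 0 of 8 passed. Only 2 of the 8, *Snap25* and *Syt1*, were lowest in KIKO replicate 2. *Cbln1* had 312.9 there, against 314.8 and 179.8 in WT replicates 1 and 2. Genes of astrocytes and Bergmann glia, led by *S100b*, summed to 639.5 and 1352 against 796.1, 1124 and 989.2. Of these 1 of 7 rose (0.716% of all genes tested), *Gfap*, the intermediate filament of astrocytes, with 19.7 and 9.74 against 29.6, 44.3 and 36.1 (log2 fold change 1.33, standard error 0.55, adjusted p = 1 in edgeR's quasi-likelihood test). *Gfap* was at 1.18 without KIKO replicate 2, and it no longer passed with the replicate block (1.37), nor without WT replicate 2 (0.89), KIKO replicate 1 (1.46) or KIKO replicate 3 (1.33). Without KIKO replicate 2, further genes passed the thresholds, *Vcan* of the monocyte list, *S100a9*, and the neuronal *Syt1*, *Calb1* and *Pvalb* higher and *Mbp* and *Mog* of oligodendrocytes lower in KIKO mice, beside 2.92% of all genes tested higher and 3.43% lower in that model. The part of these cells in the values of the 8 markers was not tested.

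**Figure D4:**
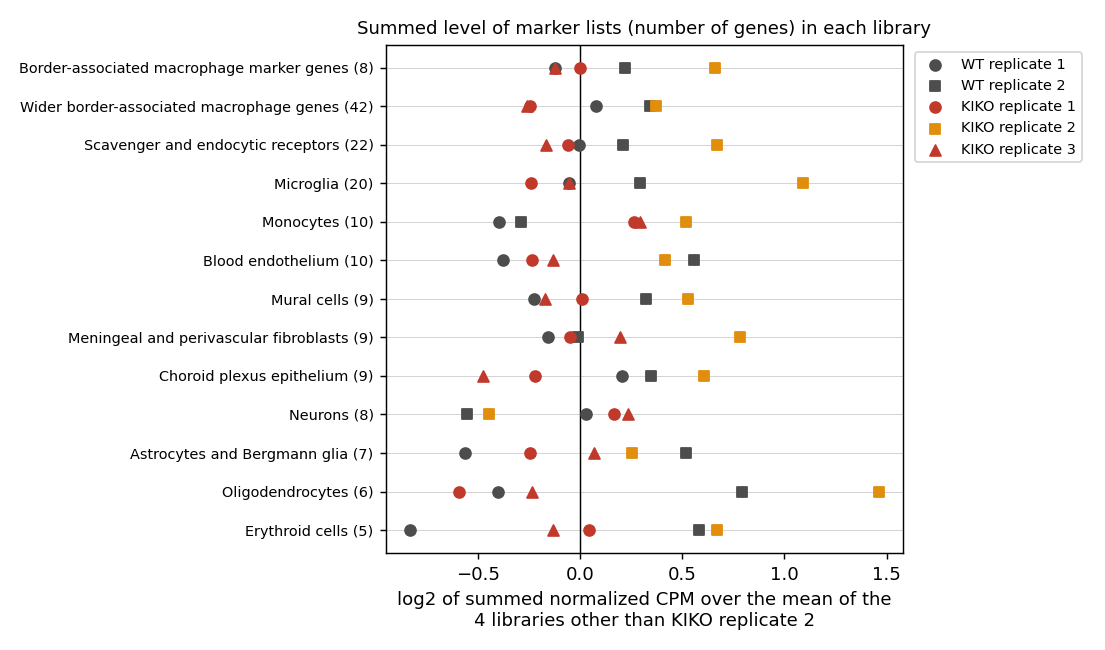
Summed normalized CPM of each marker list in each of the 5 libraries, as log2 of its ratio to the mean of the 4 libraries other than KIKO replicate 2 (orange). KIKO replicate 2 is the highest library for the 8 markers and, by a wider margin, for microglia and oligodendrocytes, while neurons are low in WT replicate 2 and KIKO replicate 2.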

How the data were processed

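The tables the authors deposited hold raw counts of 31053 Ensembl genes and log2 values of counts normalized by DESeq2. Per the study's methods, reads were trimmed, aligned to mm10 with HISAT2 and counted with featureCounts. The annotation and strand setting are not given in the sources used here. Each table holds 2 further columns that match no sample label and were not used.

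Symbols (99.6% of identifiers), exons and positions came from GENCODE M21 on GRCm38. The counts were fitted with edgeR 4.0.16 in R 4.3.3 (filterByExpr with a minimum count of 10, which kept 10889 genes, TMM on total counts, glmQLFit, and glmQLFTest, a two-sided test, adjusted over all genes tested by Benjamini-Hochberg). The thresholds are those of the study. The common biological coefficient of variation was 0.468, and 0.243 without KIKO replicate 2. The test was tested on simulated data. Alternatives were DESeq2 1.42.0, limma 3.58.1 with trend on the authors' log2 values, other scalings and filters, the replicate number as a block, and each library left out.

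The markers and lists were chosen with earlier results of these data known, and no set test was run. Named genes are the 8 markers, genes of each list past the thresholds, the 5 most abundant of the wider and scavenger lists, the most abundant and the defining genes of each cell type, the 5 genes most alike, and those stated as chosen after their values were seen. Some results are not reported here.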

Additional observations from a re-analysis of the deposited data

How the results depend on the processing

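Of the 7 tested markers, 0 passed the thresholds in each of the 12 alternatives, and *Ms4a7* was fitted only with at least 1 count in any library, where it did not pass. *Cd163*, *Stab1*, *Lyve1* and *Cbr2* kept the sign of their log2 fold change in all 12, and the lowest unadjusted p of any marker was 0.0653, for *Cd163* in edgeR with at least 10 counts in every library. The sign turned without WT replicate 1 for *Mrc1* (−0.33) and *F13a1* (−0.37), and without KIKO replicate 2 for *Mrc1* (−0.42), *F13a1* (−0.17) and *Pf4* (−0.58). The median of the markers, 0.06, ranged from −0.33 (without WT replicate 1) to 0.54 (without WT replicate 2) with a library left out, and was −0.22 without KIKO replicate 2. *Lyz2* turned without KIKO replicate 1 (0.033) or 3 (0.024), and *H2-Aa* with the replicate block (0.059), without WT replicate 2 (0.17) and without KIKO replicate 1 (0.086) or 3 (0.18). Leaving out each library once, the log2 fold change ranged from −0.42 to 0.62 for *Mrc1*, 0.71 to 1.25 for *Cd163*, 0.23 to 1.02 for *Stab1* (lowest without WT replicate 1, highest without WT replicate 2), −0.93 to −0.22 for *Lyve1* (lowest without KIKO replicate 1, highest without KIKO replicate 2), −0.71 to −0.36 for *Cbr2*, −0.58 to 1.31 for *Pf4*, −0.37 to 0.54 for *F13a1*, −0.97 to 0.033 for *Lyz2* and −0.82 to 0.18 for *H2-Aa*. Of all genes, 131 passed the thresholds, 383 with at least 1 count in any library, 271 with the replicate block (109 higher, 162 lower), and between 52 (without WT replicate 1) and 692 (without KIKO replicate 2) with a library left out. DESeq2 gave 96 higher and 40 lower and library size alone 94 and 43, against 78 and 53. The number with an adjusted p under 0.05 was 0, was 1 with at least 1 count, and ranged from 0 to 8 with a library left out, 8 being without KIKO replicate 2. What caused these shifts was not tested. The deviations of same-numbered libraries correlated with r = 0.18 and 0.24, over 2 pairs only, so that the numbers are not taken to pair the mice, and the block leaves 1 residual degree of freedom. A fit with 1 WT library assumes that it varies like the others. Depth limits *Ms4a7*, whose counts lie around the floor.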
